A study of Mus musculus with 10 samples.

Results

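A total of 1907 Mtf2 peaks of CD71+Ter119high erythroblasts lay on the autosomes and shared no base with any Mtf2 peak of CD71+Ter119-/lo pro-erythroblasts, out of 4771 autosomal erythroblast Mtf2 peaks (40%, 95% Wilson interval 38.6 to 41.4). These erythroblast-only peaks were picked from the deposited peak lists by coordinates alone, so the lack of a pro-erythroblast peak is how they were chosen and not a result. The other 2864 autosomal erythroblast peaks overlapped a pro-erythroblast Mtf2 peak and are called shared peaks here. A further 23151 autosomal pro-erythroblast Mtf2 peaks were overlapped by no erythroblast peak and are called pro-erythroblast-only peaks.

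Mtf2 (also named Pcl2) was profiled by ChIP-seq, in which protein-bound DNA is precipitated with an antibody and sequenced, in sorted fetal liver (FL) cells of E14.5 wild-type (WT) mouse embryos of C57Bl/6 background. H3K27me3 was profiled in the same 2 fractions, CD71+Ter119-/lo and CD71+Ter119high, of WT embryos and of embryos lacking Pcl2 (Mtf2-null, Pcl2 -/-). The mutant line was founded from gene-targeted C57Bl/6 ES cells, aggregated with CD1 blastocysts into chimeras, and was then bred on the C57Bl/6 background. Rabbit IgG from the same fraction and genotype was the control in each case, and 500000 cells went into each precipitation. Each condition is represented by 1 library, while the study's methods mention replicates of 2 and do not say whether these were pooled, so no spread between replicates is known and each test below compares classes of peaks within these libraries.

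Mtf2 is an accessory subunit of Polycomb repressive complex 2 (PRC2), the complex that places H3K27me3, a histone mark found at silenced genes. It is best known for bringing PRC2 to unmethylated CpG-rich DNA, above all the CpG islands at promoters of developmental genes. Pro-erythroblasts mature into Ter119-bearing erythroblasts, which fill with hemoglobin and condense their chromatin before the nucleus is expelled.

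Depth differed between the 2 Mtf2 libraries, with 15669899 unique tags in erythroblasts and 29009650 in pro-erythroblasts. The 2 lists held 5309 and 28918 peaks, and the lowest tag count of an autosomal peak was 15 in erythroblasts and 21 among pro-erythroblast-only peaks. By the peak caller's counts, unique tags were 39.7% and 34.6% of total tags, against 78.4% to 85.4% in the H3K27me3 libraries. In the IgG libraries the share ran from 42.3% to 91.8%. Unique here is the caller's count of tags and not the single-copy 25-mers described below. Depth and fraction cannot be told apart between the 2 Mtf2 lists.

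The sequences under the summits of a few erythroblast-only peaks are given first. They were picked by score, by a common run or by place near a TSS, so they need not be typical of the members. Each of the following is a window of 300 bases around the summit on the plus strand of NCBIM37 (mm9). The first 3 belong to the highest-scoring erythroblast-only peaks, and capitals mark each CG dinucleotide, the base step for which PRC2 recruitment by Mtf2 is known.
chr16:10886470-10886769: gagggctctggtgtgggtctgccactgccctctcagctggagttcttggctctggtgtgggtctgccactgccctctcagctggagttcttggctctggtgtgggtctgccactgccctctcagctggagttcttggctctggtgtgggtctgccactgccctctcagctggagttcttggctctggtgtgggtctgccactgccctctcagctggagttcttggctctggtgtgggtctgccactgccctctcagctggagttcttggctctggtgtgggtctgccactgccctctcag
chr11:34495249-34495548: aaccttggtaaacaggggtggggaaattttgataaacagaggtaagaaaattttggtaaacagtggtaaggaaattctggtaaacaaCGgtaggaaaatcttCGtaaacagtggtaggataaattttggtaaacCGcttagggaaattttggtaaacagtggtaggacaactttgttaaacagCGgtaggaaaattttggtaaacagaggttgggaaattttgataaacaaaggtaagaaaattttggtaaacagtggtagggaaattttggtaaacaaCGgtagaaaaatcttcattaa
chr6:7412849-7413148: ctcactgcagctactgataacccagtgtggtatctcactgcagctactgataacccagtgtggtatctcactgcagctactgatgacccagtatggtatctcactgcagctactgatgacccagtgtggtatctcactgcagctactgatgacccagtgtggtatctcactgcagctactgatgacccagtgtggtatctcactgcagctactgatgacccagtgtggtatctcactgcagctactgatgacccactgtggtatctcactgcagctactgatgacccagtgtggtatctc

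The chr16 and chr6 windows held no CG and were tandem repeats, in which 98.8% and 98.1% of bases equalled the base 44 and 33 positions further on. The chr11 window, in an intron of Dock2, a guanine nucleotide exchange factor of blood cells, held 5 CG and equalled itself at 75.8% of bases with a step of 48. Of all erythroblast-only windows 33 (1.73%) reached 80% at some step from 2 to 100 bases, against 12 shared windows (0.419%), 405 pro-erythroblast-only windows (1.75%) and 44 of 23926 windows placed every 100 kb along the autosomes (0.184%). The tandem measure was chosen after sequences had been seen and is given as a description.

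The next 2 windows were chosen for the 25-base run, printed in capitals, that was found in more erythroblast-only windows than any other. The first lay upstream of Pvrl3, its nearest gene, and the second 688.7 kb upstream of Lrfn5, both outside genes.
chr16:46753847-46754146: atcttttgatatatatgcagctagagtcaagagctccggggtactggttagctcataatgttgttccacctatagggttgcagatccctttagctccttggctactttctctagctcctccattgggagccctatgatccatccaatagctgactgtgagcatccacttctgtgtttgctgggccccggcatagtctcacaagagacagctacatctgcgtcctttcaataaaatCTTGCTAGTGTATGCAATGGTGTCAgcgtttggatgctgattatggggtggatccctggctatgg
chr12:61935251-61935550: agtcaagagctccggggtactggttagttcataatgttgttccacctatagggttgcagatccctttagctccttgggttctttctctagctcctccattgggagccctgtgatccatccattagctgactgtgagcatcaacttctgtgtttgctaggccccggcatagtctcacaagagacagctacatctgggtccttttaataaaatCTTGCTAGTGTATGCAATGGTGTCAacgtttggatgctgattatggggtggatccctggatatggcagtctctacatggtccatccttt

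Aligned on that run, the windows were identical at 265 of 276 bases (96.0%) although they lie on different chromosomes. The peaks held 38 and 26 tags with a fold enrichment of 26.7 and 15.6 over IgG. No 25-mer of either window was unique, and the median 25-mer of the windows occurred 7148 and 14057 times in the genome.

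The last window belongs to the erythroblast-only peak inside Mtf2 itself, the highest-scoring one within 1 kb of a TSS. Capitals mark the sites of a primer pair that is described with this peak further on.
chr5:108515384-108515683: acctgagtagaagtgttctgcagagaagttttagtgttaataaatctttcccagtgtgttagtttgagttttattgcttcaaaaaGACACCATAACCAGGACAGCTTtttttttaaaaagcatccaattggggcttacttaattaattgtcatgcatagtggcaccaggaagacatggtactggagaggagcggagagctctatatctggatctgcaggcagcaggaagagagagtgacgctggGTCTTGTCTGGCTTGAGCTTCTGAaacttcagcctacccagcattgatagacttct

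Erythroblast-only peaks lay mostly in repeated DNA. The median 25-mer of an erythroblast-only window, counted on both strands, had 663 genome copies in the median window (lower quartile 47.3, upper quartile 4884), against 996 in shared and 774 in pro-erythroblast-only windows. Windows placed every 100 kb along the autosomes had a median of 1 copy, and so did the summits of the WT CD71+Ter119high and Mtf2-null CD71+Ter119-/lo H3K27me3 lists. The WT CD71+Ter119-/lo and Mtf2-null CD71+Ter119high H3K27me3 lists had medians of 302 and 467.5 copies. In 608 erythroblast-only windows (31.9%) no 25-mer was unique, against 68.7% of shared and 49.8% of pro-erythroblast-only windows.

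A minority of erythroblast-only windows was made mainly of unique sequence. At least 50% of 25-mers were unique in 127 of them (6.66%, interval 5.63 to 7.87), in 8 shared windows (0.279%, 0.142 to 0.550) and in 488 pro-erythroblast-only windows (2.11%, 1.93 to 2.30). The same share was 83.7% along the autosomes, 88.2% at WT CD71+Ter119high H3K27me3 summits, 70.5% at Mtf2-null CD71+Ter119-/lo, 19.1% at WT CD71+Ter119-/lo and 11.4% at Mtf2-null CD71+Ter119high H3K27me3 summits. Copy number was examined after the first results were seen and is a description without a test. How reads with several genomic matches were placed, and what was masked before peaks were called, are not given in the sources used here, so the part of read placement in these peaks was not tested.

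**Figure D1:**
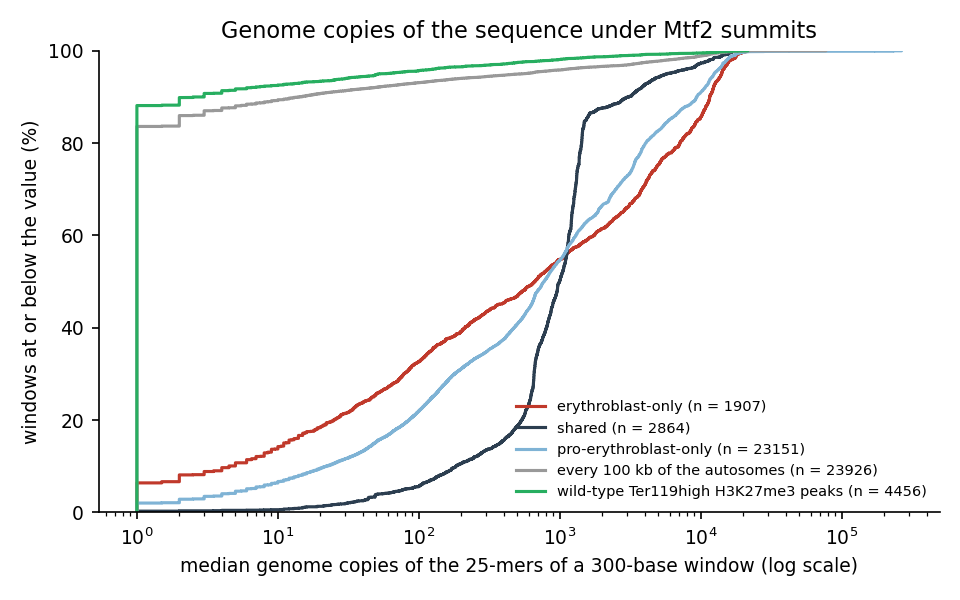
Cumulative share of 300-base windows (vertical axis, percent) by the median number of genome copies of their 25-mers (horizontal axis, log scale) for 5 sets of windows. The 3 Mtf2 classes have medians of 663, 996 and 774 copies, whereas the autosomal grid and the WT CD71+Ter119high H3K27me3 summits have a median of 1.

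Many erythroblast-only peaks held the same sequence. A 25-base run of the window also occurred in another erythroblast-only window in 1746 cases (91.6%), against 98.4% of shared and 97.7% of pro-erythroblast-only windows counted within their own class. In all, 22 runs, each assigned at least 20 windows, covered 972 erythroblast-only windows (51.0%). The commonest run, the one in capitals above, was found in 108 erythroblast-only windows (5.66%) on 19 chromosomes, in 23 shared windows (0.803%) and in 699 pro-erythroblast-only windows (3.02%). The next runs, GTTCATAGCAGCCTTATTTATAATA and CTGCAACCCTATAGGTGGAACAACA, were held by 90 and 104 erythroblast-only windows and by 15 and 18 shared ones. The second of these also lies, on the opposite strand, in both windows printed above for the commonest run. It was assigned 74 of its 104 windows, because the others had gone to an earlier run. Different runs can therefore come from the same stretch of repeated sequence.

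The commonest runs of the shared class were other sequences. Of the 5 that grouped most shared windows, held by 142, 117, 105, 94 and 86 of them, the first 3 were in 0 erythroblast-only windows and the remaining ones in 1 each. The same 5 were in 45 to 165 pro-erythroblast-only windows. Runs were picked for being common in 1 class, so their lower count in the other class has no test.

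Few genomic copies of the commonest run lay in an erythroblast-only peak. The commonest erythroblast-only run occurred 29606 times on the autosomes, and 258 of these copies (0.871%) were inside erythroblast-only peaks. Pro-erythroblast Mtf2 peaks held 2249 copies (7.60%), which are other copies of the same sequence, since the peaks do not overlap. These shares are not adjusted for the bases covered. Erythroblast-only peaks covered 1.80 Mb, and pro-erythroblast-only peaks, a part of the pro-erythroblast list, covered 40.8 Mb. Of the H3K27me3 lists, the Mtf2-null CD71+Ter119high one held most copies, 592 (2.0%), against 34 (0.115%) in the WT list of that fraction. Those libraries had 67169672 and 30054186 unique tags, and the part of depth in this difference was not tested.

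Erythroblast-only peaks were small. They held a median of 21 tags (15 to 189), against 29 in shared and 56 in pro-erythroblast-only peaks, and 838 (43.9%) held fewer than 20 tags, compared with 557 shared peaks (19.4%). The score, −10 log10 of the peak caller's p, was 58.5 at the median against 63.1 in shared peaks, and 26 erythroblast-only peaks (1.36%) but 304 shared peaks (10.6%) scored 100 or more.

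Fold enrichment over IgG ran the other way, with a median of 11.02 (3.99 to 35.1) against 9.53 in shared peaks. The peak caller's FDR was 6.97% to 57.1% with a median of 8.55%, close to the 8.36% of shared peaks. Among pro-erythroblast-only peaks the FDR was at most 0.31%. The median length was 791 bases against 1092 in shared peaks. Together the erythroblast-only peaks covered 1.80 Mb. Tags, score and length bear on whether 2 lists overlap, so these values describe the members and were not tested.

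**Figure D2:**
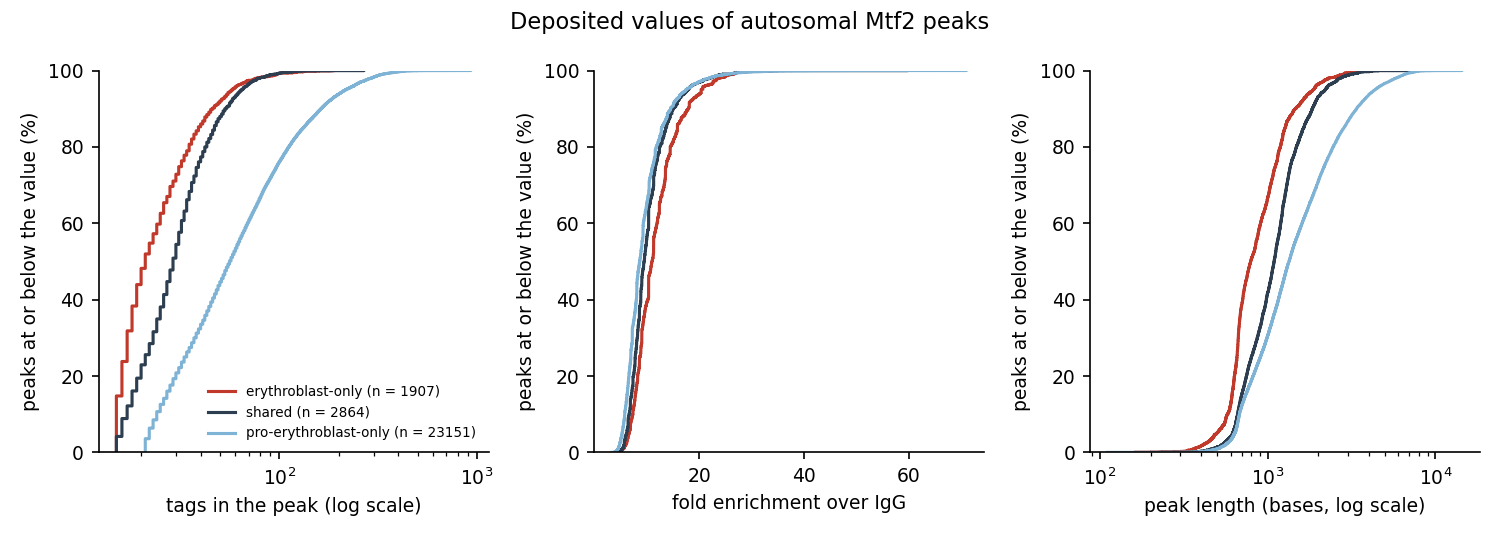
Cumulative share of autosomal Mtf2 peaks (vertical axes, percent) by tags per peak, fold enrichment over IgG and peak length in bases for the 3 classes, with tags and length on log scales. The erythroblast-only curve lies left of the others for tags (median 21) and length (median 791 bases) and right of them for fold enrichment (median 11.02).

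The nearest pro-erythroblast Mtf2 peak was usually some distance away. The median gap was 29.9 kb, with 115 erythroblast-only peaks (6.03%) within 1 kb of one and 1614 (84.6%) within 100 kb. Just inside the rule were chr8:30074938-30075909, in an intron of the netrin receptor gene Unc5d, 5 bases from a pro-erythroblast peak with 26 tags of its own, and chr1:99291708-99292867 with 6 bases and 35 tags. Just outside were chr4:110367423-110368078, which shared 4 bases with a pro-erythroblast peak and had 16 tags, and chr3:38666564-38667682, which shared 14 bases and had 33.

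Every autosome carried erythroblast-only peaks. They numbered 0.771 per Mb, from 0.558 on chromosome 11 to 0.915 on chromosome 3, and 358 (18.8%) had another within 100 kb. Their share of a chromosome's erythroblast peaks ran from 33.6% (interval 28.1 to 39.6) on chromosome 13 to 46.0% (36.6 to 55.7) on chromosome 19, intervals that overlap.

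**Figure D3:**
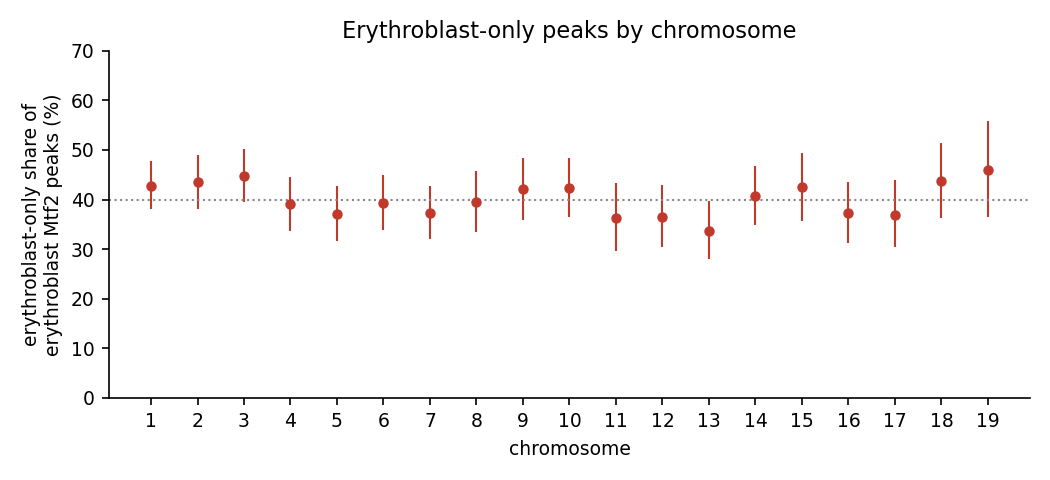
Share of erythroblast Mtf2 peaks that are erythroblast-only (vertical axis, percent) for each of 19 autosomes (horizontal axis), with 95% Wilson intervals as bars and the share over all autosomes, 40%, as a dotted line. The points run from 33.6% to 46.0%.

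Erythroblast-only peaks lay mostly away from promoters. By the position of the summit, 1337 (70.1%) were intergenic and 460 (24.1%) intronic, compared with 72.3% and 24.3% of shared peaks. These shares did not pass the test between the classes (two-sided Fisher's exact test, adjusted over 20 tests, p = 0.159 and 0.937), with differences of -2.24 and -0.18 percentage points. Against pro-erythroblast-only peaks the intergenic share was lower by a small margin (72.7%, adjusted exact p = 0.0281). The call was lost at the median score or above (adjusted exact p = 0.0746), at middle lengths (1.0) and with some unique sequence (0.0756). Score and length limits were put on erythroblast peaks only, and all 23151 pro-erythroblast-only peaks were kept. Under the score limit 796 erythroblast-only peaks were left, and the difference went from -2.64 to -3.65 percentage points. Peaks close together or with the same repeat are not independent, so such p-values are smaller than independent peaks would give.

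Proximal promoters, within 1 kb of a TSS, held 21 erythroblast-only summits (1.10%) and 8 shared ones (0.279%), an adjusted exact p of 0.00133. Distal promoters, from 1 to 5 kb upstream, held 83 (4.35%) against 84 (2.93%), an adjusted exact p of 0.0222. Neither difference passed the test among peaks of at least the median score (adjusted exact p = 0.115 and 0.085), among peaks of middle length (0.784 and 0.954) or among windows with some unique sequence (0.0756 and 0.166). The proximal share of pro-erythroblast-only peaks was 1.02%, and that difference did not pass (adjusted exact p = 0.851).

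CpG-island-like sequence, here at least 50% GC with an observed to expected CpG ratio of at least 0.6 in 1 kb, was found at 0 of 1907 erythroblast-only summits, which allows a share of up to 0.157%. It was found at 22 shared summits (0.768%, adjusted exact p = 7.48e-05) and at 672 pro-erythroblast-only summits (2.90%, adjusted exact p = 3.62e-23). The autosomal grid gave 0.606%, and the WT CD71+Ter119high H3K27me3 summits gave 47.5%. With 300 bases in place of 1 kb, 0.577% of erythroblast-only summits met the definition, a share not computed for the other classes. Peak centres in place of summits gave 0.105%. The difference from shared peaks did not pass among peaks of at least the median score (adjusted exact p = 0.0758).

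Base composition separated the classes more than location did. GC content above 40% in 1 kb was found at 64.8% of erythroblast-only summits, 86.4% of shared summits (adjusted exact p = 1.11e-66) and 78.2% of pro-erythroblast-only summits (adjusted exact p = 1.56e-36), next to 61.2% along the autosomes. The median GC content was 41.6%, 44.0%, 44.4% and 41.7% in the same order. Repeated sequence differed between the classes as described above, and its part in the difference was not tested.

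Short sequence patterns were looked for in the 300-base windows. The GATA-type motif AGATAA, on either strand, the letters that Gata1 and other erythroid GATA factors can bind, was present in 254 erythroblast-only windows (13.3%) and 719 shared windows (25.1%, adjusted exact p = 3.62e-23). Pro-erythroblast-only windows held it in 12.9% of cases (adjusted exact p = 0.743), and all windows along the autosomes in 19%. Among windows without a unique 25-mer the shares were 12.2% in erythroblast-only and 26.1% in shared windows, and among the 127 erythroblast-only windows made mainly of unique sequence the share was 21.3% (15 to 29.2).

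Runs of 10 or more copies of one dinucleotide were present in 18 erythroblast-only windows (0.944%) and 3 shared windows (0.105%, adjusted exact p = 7.48e-05). In pro-erythroblast-only windows the share was 1.04%, a difference that did not pass (adjusted exact p = 0.904). Along the autosomes such runs were in 4.34% of windows, above each Mtf2 class. The difference from shared peaks did not pass among peaks of at least the median score (adjusted exact p = 0.142).

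**Figure D4:**
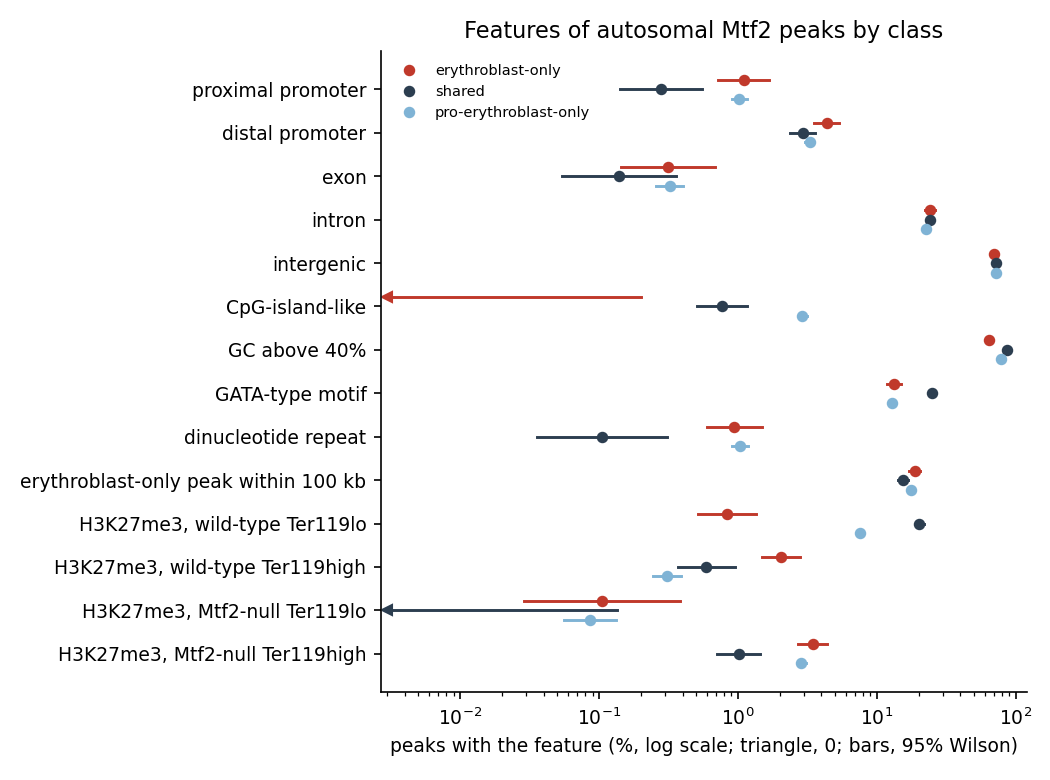
Percent of peaks with each feature (horizontal axis, log scale) in erythroblast-only, shared and pro-erythroblast-only Mtf2 peaks, with 95% Wilson intervals as bars and a triangle at the left edge for a share of 0. The widest separations between erythroblast-only and shared peaks are in the WT CD71+Ter119-/lo H3K27me3 list (0.839% and 20.3%), GC content above 40% (64.8% and 86.4%) and the GATA-type motif (13.3% and 25.1%).

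H3K27me3, the mark that PRC2 places, was rarely called at erythroblast-only peaks. In total 119 of them overlapped a peak of at least 1 of the 4 H3K27me3 lists and 1788 overlapped none. In the WT CD71+Ter119high cells in which these Mtf2 peaks were called, 39 (2.05%, interval 1.5 to 2.78) overlapped an H3K27me3 peak, next to 1.17% of all autosomal erythroblast Mtf2 peaks. That was more than among shared peaks (17, 0.594%, adjusted over 8 Fisher's exact tests, p = 1.15e-05) or pro-erythroblast-only peaks (72, 0.311%, adjusted exact p = 2.70e-16). This list and the erythroblast Mtf2 list were called against the same IgG library, whose part in the overlap was not tested. With H3K27me3 peaks limited to a score of 100 or more, 0.0524% of erythroblast-only peaks and 0% of shared peaks were left and the test no longer passed (adjusted exact p = 0.64). Against pro-erythroblast-only peaks, of which 0.0993% were left, the direction turned and the difference did not pass the test.

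Of the 4 lists, the largest difference was in pro-erythroblast H3K27me3. The WT CD71+Ter119-/lo list overlapped 16 erythroblast-only peaks (0.839%) and 582 shared peaks (20.3%, adjusted exact p = 1.16e-114), next to 12.5% of all autosomal erythroblast Mtf2 peaks. It overlapped 1762 pro-erythroblast-only peaks (7.61%, adjusted exact p = 1.49e-41). That list used the IgG library of the pro-erythroblast Mtf2 list, the one that split the classes, and the part of the common control was not tested.

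In Mtf2-null cells the CD71+Ter119high H3K27me3 list overlapped 66 erythroblast-only peaks (3.46%) and 29 shared peaks (1.01%, adjusted exact p = 1.51e-08), next to 1.99% of all autosomal erythroblast Mtf2 peaks. The share of pro-erythroblast-only peaks was 2.86%, a difference that did not pass (adjusted exact p = 0.181). Of the 66 peaks, 25 had no unique 25-mer in the window and 0 had at least 50% of them unique. With a score of 100 or more the shares were 0.472% and 0.175% (adjusted exact p = 0.26). The Mtf2-null CD71+Ter119-/lo list overlapped 2 erythroblast-only peaks (0.105%) and 0 shared ones (adjusted exact p = 0.183), next to 0.0419% of all.

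In both the WT and the Mtf2-null CD71+Ter119high list were 2 erythroblast-only peaks. The peaks of the WT list with the highest Mtf2 score were the one in the Dock2 intron, with 135 tags, and the one far upstream of Lrfn5, a synaptic adhesion gene, with 26 tags. The Dock2 peak was also in the WT CD71+Ter119-/lo list. The third was chr2:13806658-13807887, 91.4 kb upstream of the sialyltransferase gene St8sia6, with 31 tags and a fold enrichment of 12.4. None of the 21 proximal promoter members overlapped a peak in any of the 4 lists.

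The peaks at the top of each ranking lay in repeated as well as in unique sequence. The highest score, 219, belonged to chr16:10886516-10886816, the tandem repeat printed above, with 20 tags, a fold enrichment of 12.5 and an FDR of 57.1%. Next were the Dock2 peak, chr11:34495137-34496397 (score 157, FDR 18.8%), and chr6:7412658-7413426 (score 146, 30 tags), 92.1 kb upstream of Tac1, which encodes the precursor of substance P. The upper quartile of the FDR over all erythroblast-only peaks was 9.82%, below that of each of these peaks.

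The largest fold enrichments were 35.1 at chr10:88111700-88112730, 27.3 kb past the nearest TSS, that of Spic, an Ets factor needed by red-pulp macrophages, 33.1 at chr2:22594604-22595753, 34.4 kb upstream of Apbb1ip, and 31.7 at chr1:146014998-146015983 in an intron of Rgs13. These peaks held 26, 35 and 23 tags. The Spic peak lay 543 bases from a pro-erythroblast peak. The Apbb1ip window was mainly unique, with 96.0% of 25-mers found once.

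The longest erythroblast-only peaks held many tags at a fold enrichment below the median of the members. They were chr4:30573155-30577523 (4369 bases, 179 tags, fold 8.32), chr7:16162963-16167094 in an intron of Obox3 (4132 bases, 132 tags, fold 6.48) and chr3:20796519-20800517 (3999 bases, 189 tags, fold 9.21). The median 25-mers of their summit windows had 2678, 6687 and 7522 genome copies.

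The erythroblast-only peak inside Mtf2 stood out among the 21 proximal promoter members. It spanned chr5:108515321-108516202 and held 43 tags, with a score of 127, a fold enrichment of 23.4 and an FDR of 9.84%. The other 20 held 15 to 30 tags. Its summit lay 481 bases upstream of an annotated internal TSS of Mtf2 and 20841 bases from the 5′ end of the gene, 92.0% of its 25-mers were unique, and no pro-erythroblast Mtf2 peak lay within 154 kb.

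The summit of this peak coincided with the genotyping PCR of the study. The forward primer GACACCATAACCAGGACAGCTT and the wild-type reverse primer TCAGAAGCTCAAGCCAGACAAGAC, listed for genotyping Mtf2, matched exactly at the sites in capitals in the window printed above, the second on the opposite strand. They enclose 183 bases, chr5:108515469-108515651, from 65 bases before the summit to 117 bases after it, all within the peak. Of 40 forward and reverse pairs listed by the study, 69 exact products of up to 1 kb were found in the genome, and the Mtf2 genotyping product was the only 1 that overlapped an erythroblast Mtf2 peak. Pro-erythroblast Mtf2 peaks overlapped 13 of the products, all of the Gapdh qPCR pair. The WT CD71+Ter119high H3K27me3 list overlapped 3, of the Cebpa, Fli1 and Gata2 pairs. The part of the genotyping product in the peak inside Mtf2 was not tested, and leaving that peak out changed no call among the 20 tests of location and sequence.

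**Figure D5:**
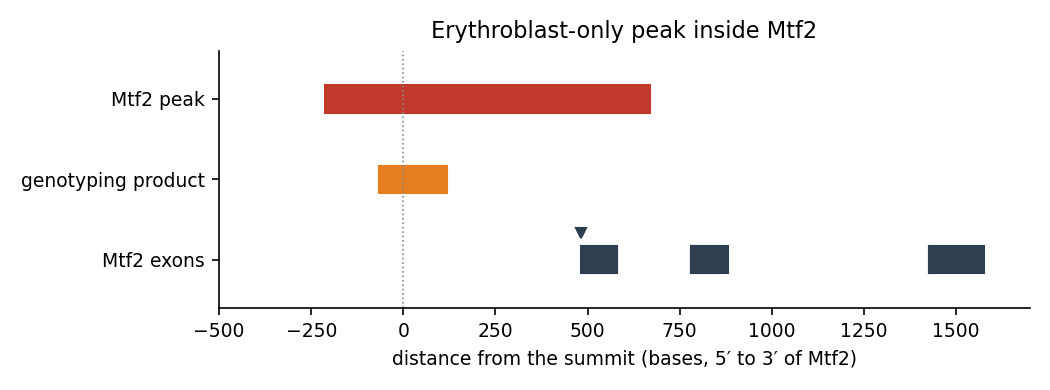
Map of the erythroblast-only peak inside Mtf2, drawn to scale as distance from its summit in bases (horizontal axis), with the peak, the 183-base genotyping product, the annotated exons and an internal TSS (triangle). The product runs from -65 to 117 and contains the summit, while the nearest exon begins at 481.

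The other proximal promoter members had few tags, and 16 of the 21 held fewer than 20. At the second score rank was Epc2, a subunit gene of the NuA4 histone acetyltransferase complex, with 18 tags and a fold enrichment of 11.3. Usp32, a ubiquitin protease gene, had 15 tags and a fold enrichment of 16.6. Nbn, which encodes a subunit of the MRN complex that binds DNA breaks, had 15 tags and 13.5. Tardbp, which encodes the RNA-binding protein TDP-43, had 25 tags and 17.3. Like the Mtf2 summit, those of Epc2, Usp32 and Tardbp lay at a TSS inside the gene, 76939, 98279 and 1412 bases from its 5′ end, whereas that of Nbn lay 620 bases upstream of the gene. The window was made mainly of unique sequence in 5 of the 21.

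Genes were rarely close to an erythroblast-only peak. Of 21418 autosomal protein-coding genes, 168 (0.784%) had one within 5 kb of a TSS, 150 had a shared peak there and 4 had both. Within 1 kb the number was 35 (0.163%), and 550 (2.57%) had one between 5 kb upstream and 1 kb past the end of the gene.

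Among the listed erythroid genes, Uros, which encodes uroporphyrinogen III synthase, an enzyme of heme synthesis, had an erythroblast-only peak within 5 kb of a TSS. The peak held 18 tags at a fold enrichment of 8.64, with its summit in an intron, 16557 bases into the gene. The median 25-mer of the window had 13934 genome copies.

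Of 29 Polycomb genes 1 had a peak within 5 kb, the Mtf2 gene described above, and Pcgf3, a subunit gene of a variant PRC1, had one within the wider window (2 of 29, 6.90%). Of 69 Wnt pathway genes 0 had a peak within 5 kb, and 3 (4.35%, next to 2.57% of all genes) had one within the wider window, the transcription factor gene Lef1, the receptor gene Ror2 and the ligand gene Wnt2. Of 29 genes for blood transcription factors 0 had a peak in either window. Of 57 cadherin genes 0 had a peak within 5 kb and 2, Cdh12 and Cdh18 (3.51%), in the wider window, while 12 of 1445 sensory receptor genes (0.830%) had one within 5 kb, close to the 0.784% of all genes.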

How the data were processed

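The series holds 6 ChIP and 4 IgG libraries of sorted e14.5 FL cells, 1 per condition. Reads were mapped to mm9 by the authors (Bowtie2 2.2.3), and MACS 1.3.7 gave the peaks against the IgG library of the fraction and genotype, per the file headers at a p cutoff of 1e-05 with a tag size of 25. The deposited tag counts per peak are not normalized, the deposited score is −10 log10 p, the deposited fold is the ratio of ChIP to local IgG background, and the FDR, in percent, is the estimate of the authors' caller as deposited. Read length and the treatment of reads with several matches are not given in the sources used here. IgG libraries have no list.

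Members were the autosomal erythroblast peaks with no base in a pro-erythroblast peak. The members, gene lists and tests were chosen with earlier results of these data known. Summits were placed on GENCODE M1 protein-coding genes (NCBIM37, 69963 distinct TSS), in the order proximal (1 kb), distal (1 to 5 kb upstream), exon, intron, intergenic. Copies of 25-mers were counted on both strands of the whole genome. Shares were compared by two-sided Fisher's exact tests with Benjamini-Hochberg adjustment over 10 features or 4 lists times 2 classes (scipy 1.17.1). The steps were tested on simulated data. Wilson intervals and the limit of 3 counts for a count of 0 cover counting error only. Named peaks were the highest by score, fold, length and nearness to the rule, the proximal promoter members, and those in the WT CD71+Ter119high H3K27me3 list or near listed genes. Chromosomes X and Y were kept apart. A result near a listed gene is not reported here.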

Additional observations from a re-analysis of the deposited data

Results flagged for a closer look

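Sex chromosomes lie outside the autosomal comparisons, and a signal was present there too. On chromosome X, 230 of 531 erythroblast Mtf2 peaks (43.3%, 95% Wilson interval 39.2 to 47.6) shared no base with a pro-erythroblast Mtf2 peak, and on chromosome Y 4 of 7 did. The X share lies near the 40% of the autosomes, and the difference between them was not tested.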

How the results depend on the processing

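No paired analysis was possible because each condition has 1 library and no result compares replicates, and no library could be left out. The number of erythroblast-only peaks was 1792 to 2141 under 4 other overlap rules and chromosome sets, 50 of 330 with a score of at least 100 in both lists, and 2900 (60.8%) with the pro-erythroblast list cut to the size of the erythroblast list. The number of genes was 35 within 1 kb of a TSS and 550 in the wider window. In 300 bases the CpG-island-like share was 0.577% and the median GC content 42.3%.

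Differences below are percentage points, erythroblast-only minus the other class, and the cause of a lost call was not tested. Against shared peaks, a score at or above the median gave 0.566 for proximal and 1.64 for distal promoters, -0.564 for CpG-island-like sequence and 0.377 for dinucleotide repeats, none past the test. Middle lengths gave 0.285, 0.27 and 0.0475 for proximal, distal and dinucleotide repeats. They turned another erythroblast-only peak within 100 kb from 3.34 to -0.045. That feature counts the members themselves, so it is a description of them only. Peak centres gave 1.14 for distal promoters. Windows with at least 1 unique 25-mer, an alternative added after the data were seen like that without the Mtf2 peak, gave 0.939 and 1.58 for the promoters and 0.914 for the neighboring peak. Against pro-erythroblast-only peaks, distal promoters gave 1.24 (score), -0.102 (length), 0.755 (centre) and 1.00 (unique), and intergenic peaks -3.65, -0.166 and -2.95 (score, length, unique). All of these calls were lost, while dinucleotide repeats passed at -0.923 (length). Score and length limits left all 23151 pro-erythroblast-only peaks in, so these alternatives set limited members against an unlimited class. For H3K27me3, a score of 100 gave 0.0524 and 0.297 for the WT and Mtf2-null CD71+Ter119high lists against shared peaks, neither past the test. Against pro-erythroblast-only peaks that score turned the WT one to -0.0469, which did not pass. Summits inside peaks made the Mtf2-null one pass there at 0.988. The other 144 of 174 alternative values kept the call, or, for counts, stayed within 1.5 times. Those that passed also kept direction. Some that passed in neither setting turned, such as intergenic against shared peaks, from -2.24 to 2.34 (length).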
